A study of Mus musculus with 12 samples.

Results

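The complement genes of the brain were followed across the hippocampi of Tg2576 mice after treatment with inhibitors of histone deacetylases and phosphodiesterases. The 9 genes were C1qa, C1qb, C1qc, C3, C4b, C3ar1, C5ar1, Itgam and Cd55, and each was read from the probe set annotated to that symbol alone. This gave 1 probe set for each of 8 members, out of 22180 genes with a probe set of their own. C3 had none and no value is given for it. RNA was hybridized to Affymetrix Mouse Gene 2.0 ST arrays, whose short probes cover the exons of a gene, and the values are log2 intensities after RMA, the authors' background correction and normalization.

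All mice, vehicle controls included, were B6.Cg-Tg(APPswe)E1-2Dbo/J transgenics (Tg2576) aged 16 to 18 months. In them a hamster prion promoter drives the Swedish mutant of the human amyloid precursor protein. The methods give their Tg2576 mice as females on a C57BL/6/SJL background, which differs from the strain name in the labels. No wild type mouse is among the arrays. There were 4 groups of 3 arrays, each array a biological replicate: CM-695, an inhibitor of HDAC6 and PDE9; CM-414, an inhibitor of class I histone deacetylases, HDAC6 and PDE5; SAHA (vorinostat, a histone deacetylase inhibitor) given with tadalafil (a PDE5 inhibitor); and vehicle. Treatment lasted 4 weeks, and the hippocampus was taken 24 h after its end by the labels. The methods give fear conditioning and water maze tests during treatment, and the hippocampus taken 24 h after the last water maze probe trial. Of the 4 groups these methods cover CM-695 and vehicle only. Sex, background and tests of the CM-414 mice and of the SAHA and tadalafil mice are not given there. The methods give the vehicle as DMSO and Tween-20 in saline, whereas the labels name saline only. Doses of CM-414, SAHA and tadalafil are not given in the sources used here, so the groups cannot be matched by dose.

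The complement system is a cascade of blood and tissue proteins that marks targets for removal by phagocytes. Its classical arm starts with C1q, a complex of A, B and C chains encoded by C1qa, C1qb and C1qc, and runs through C4 to C3, whose fragments are read by C3ar1 and by the integrin CR3, of which Itgam (CD11b) is one chain. In the brain C1q is made chiefly by microglia, the resident phagocytes, and in mouse models of amyloid disease C1q and CR3 take part in the removal of synapses. Cd55 (decay-accelerating factor) takes apart the enzyme complexes that cleave C3 and so restrains the cascade.

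The C1q genes lie side by side, and C1qb and C1qc were the pair of C1q chains whose values varied together across all arrays, as described further on. Their promoters are shown for that reason, from 250 bases before to 50 bases after the start of transcription in RefSeq (build GRCm38.p6). In the gene table of that build the order along chromosome 4 is C1qb, C1qc and C1qa with no other protein-coding gene between them. C1qb is shown at chr4:136886151-136886450 and C1qc at chr4:136892865-136893164, both on the minus strand. The capitals mark the letters GAGGAA, read on either strand, the core of the site bound by PU.1, a transcription factor of the myeloid lineage.
C1qb: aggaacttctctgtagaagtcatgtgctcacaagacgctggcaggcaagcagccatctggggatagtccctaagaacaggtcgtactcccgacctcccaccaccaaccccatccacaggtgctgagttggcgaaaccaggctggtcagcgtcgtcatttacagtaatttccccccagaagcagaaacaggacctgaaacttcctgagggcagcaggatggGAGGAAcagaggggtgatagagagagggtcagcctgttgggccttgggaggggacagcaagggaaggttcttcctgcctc
C1qc: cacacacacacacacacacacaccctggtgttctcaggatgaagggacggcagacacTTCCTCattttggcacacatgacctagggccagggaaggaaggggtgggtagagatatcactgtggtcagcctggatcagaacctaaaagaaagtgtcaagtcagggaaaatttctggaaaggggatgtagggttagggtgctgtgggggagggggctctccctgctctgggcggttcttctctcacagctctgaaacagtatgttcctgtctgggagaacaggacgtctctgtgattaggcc
C1qb has the letters once, at position -30 from the start (start base 0), on the strand of the gene. C1qc also has them once, at position -193 on the opposite strand, where they lie within the longer form GAGGAAGT. GAGGAA was found in 28.3% of 32851 promoter windows of this length and GAGGAAGT, which contains it, in 3.2%. Promoter windows were at hand for 7 of the 9 members. Itgam has GAGGAA 3 times, and C3, C3ar1, C5ar1 and Cd55 have it in none of their windows. A match is a run of letters and was not tested as a binding site.

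The 12 arrays were close to each other, with correlations across probe sets between 0.978 and 0.991 for any pair. The first principal component held 23.6% of the variance. On it the third CM-695 array, the first SAHA and tadalafil array and the second vehicle array scored 33.4, 22.0 and 36.2. The other 9 arrays were spread from -24.5 (SAHA and tadalafil replicate 2) to 2.10 (CM-695 replicate 2). That lowest score was larger in size than 22.0, so the choice of these 3 took high scores only. Results are also given without these 3, which are called the arrays that stand apart. All 10 neuronal markers and 11 of 12 microglial markers were measured above the filter on every array, as were all 14 markers of thalamus and habenula, regions next to the hippocampus. Whether fewer cells of a type or less RNA per cell lie behind a lower value cannot be told apart in such tissue RNA.

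C1qb, the gene of the B chain, had the lowest values of all 12 arrays in the 3 CM-695 mice, with 8.77, 8.71 and 8.99. It lay at 9.09, 9.33 and 9.09 in CM-414 mice, at 9.07, 9.67 and 9.29 in SAHA and tadalafil mice, and at 9.996, 9.42 and 9.27 in vehicle mice. No CM-695 array overlapped with any array of another group, while CM-414, SAHA and tadalafil, and vehicle overlapped with each other. Against vehicle alone, 5.15% of 35195 probe sets lay lower in CM-695 mice without overlap. How many lay lower in CM-695 mice than on all other arrays was not counted, so that order is not read as particular to C1qb. The group means were 8.82 ± 0.15 with CM-695, 9.17 ± 0.14 with CM-414, 9.34 ± 0.30 with SAHA and tadalafil and 9.56 ± 0.38 with vehicle (SD, n = 3 each). C1qb fell with CM-695 against vehicle, by 0.74 on the log2 scale (95% confidence interval -1.20 to -0.28), which is 0.599 of the vehicle level. It was the only one of 8 members past the study's threshold, an unadjusted p under 0.01 in limma (a linear model with spreads moderated across probe sets), in that comparison, where 1.12% of 35195 probe sets were past it and 0.753% were past it and lower. After Benjamini-Hochberg adjustment over all probe sets the limma p was 0.871, and no probe set passed 0.05. An exact permutation test of 3 arrays against 3 cannot go below a two-sided p of 0.1, which is what groups without overlap give.

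The call for C1qb in CM-695 mice depended on single arrays and on the model, although the sign did not. Leaving out vehicle replicate 1, the highest array, gave a log2 fold change of -0.52, still past the threshold. Leaving out vehicle replicate 2, CM-695 replicate 1 or CM-695 replicate 2 ended the call, with log2 fold changes of -0.81, -0.71 and -0.68. Leaving out all 3 arrays that stand apart ended it too, with a log2 fold change of -0.89, as did the replicate number as a block, at the same log2 fold change of -0.74. Over 14 alternatives its adjusted p ran from 0.229 to 1.00.

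In the other treatments C1qb was not called. The log2 fold change against vehicle was -0.39 with CM-414 (interval -0.82 to 0.03, adjusted p = 0.568 from limma) and -0.22 with SAHA and tadalafil (interval -0.65 to 0.20, adjusted p = 0.996). Both rest in part on vehicle replicate 1, without which they were -0.18 and -0.0072. All comparisons with vehicle share its 3 arrays. For the 3 treatments together against vehicle the log2 fold change was -0.45 (adjusted p = 0.643), and without vehicle replicate 1 it was -0.24. Between CM-695 and CM-414 the log2 fold change of C1qb was -0.35 (interval -0.77 to 0.08, adjusted p = 0.878), so a difference between these compounds was not established. A limma F test over the 4 groups gave an adjusted p of 0.628 for C1qb, the smallest of the 8 members.

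**Figure D1:**
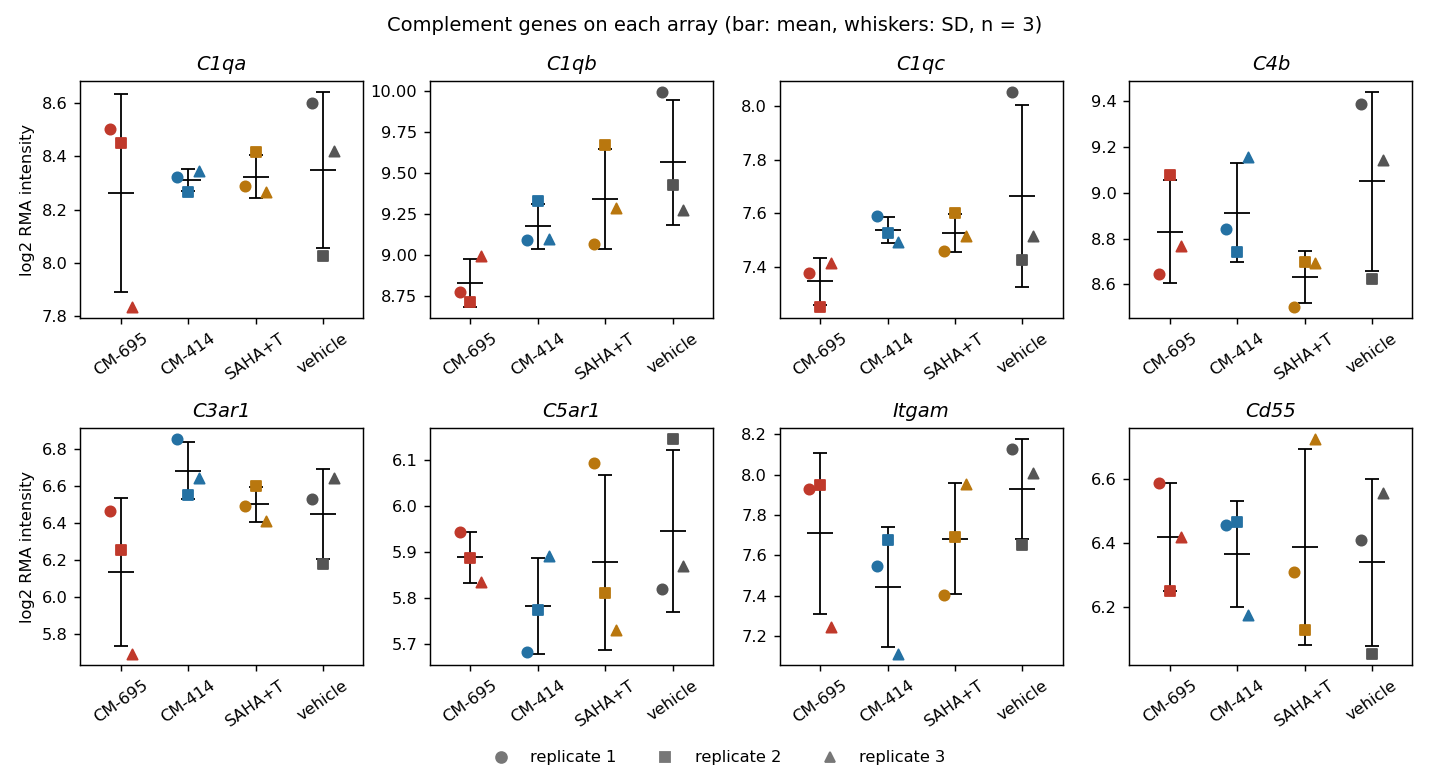
Log2 RMA intensity (y axis) of the 8 measured complement genes on each of the 12 arrays, by group (x axis; SAHA+T is SAHA and tadalafil), with the group mean and SD over 3 arrays. For C1qb the CM-695 arrays lie between 8.71 and 8.99, below all others, and vehicle replicate 1 is the highest array for C1qa, C1qb, C1qc, C4b and Itgam.

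C1qc, the gene of the C chain, had the same order of CM-695 at the bottom and vehicle at the top, with smaller differences. CM-695 mice had 7.38, 7.25 and 7.42, CM-414 mice 7.59, 7.53 and 7.49, SAHA and tadalafil mice 7.46, 7.60 and 7.52, and vehicle mice 8.05, 7.43 and 7.52. The CM-695 arrays were again the lowest of all 12, an order whose share over all probe sets was not counted. Vehicle replicate 2 lay next to the highest of them, and the vehicle group was spread out by replicate 1. Against vehicle the log2 fold change with CM-695 was -0.32 (interval -0.72 to 0.09, adjusted p = 0.992), and -0.12 without vehicle replicate 1. C1qb and C1qc were 2 of 8 members that lay below vehicle without overlap in CM-695 mice, where 5.15% of all probe sets did.

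C1qa, the gene of the A chain, did not separate the groups. Its values were 8.50, 8.45 and 7.83 in CM-695 mice, 8.32, 8.26 and 8.35 in CM-414 mice, 8.29, 8.42 and 8.26 in SAHA and tadalafil mice, and 8.60, 8.03 and 8.42 in vehicle mice. Its lowest arrays were CM-695 replicate 3 and vehicle replicate 2, both among the arrays that stand apart. Against vehicle the log2 fold change with CM-695 was -0.09 (interval -0.60 to 0.43, adjusted p = 0.992 from limma), and without the arrays that stand apart it was -0.03. Whether C1qa and C1qb changed unequally was not tested.

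C4b encodes complement C4, a component of the classical pathway, and in the mouse brain it is made largely by glia. SAHA and tadalafil mice had 8.50, 8.70 and 8.69, against 9.39, 8.62 and 9.14 in vehicle mice. The vehicle group thus spanned most of the range of the series, and its replicate 2 lay below 2 of the SAHA and tadalafil arrays. The log2 fold change was -0.42 (interval -0.83 to -0.01), with an adjusted p of 0.952, and it was not past the threshold of 0.01. It was past it without vehicle replicate 2, at a log2 fold change of -0.63. CM-695 mice had 8.65, 9.08 and 8.77 and CM-414 mice 8.84, 8.74 and 9.16, with log2 fold changes against vehicle of -0.22 (adjusted p = 0.992) and -0.14 (adjusted p = 0.865). C4a, a near copy of C4b next to it in the genome, can share signal with such probes, so the C4b values may hold signal of both.

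Among the receptors, C3ar1, which senses the C3a fragment on microglia and other myeloid cells, had the largest difference of the 8 members between the dual inhibitors. CM-695 mice had 6.47, 6.25 and 5.69, against 6.86, 6.55 and 6.65 in CM-414 mice, with no overlap. The log2 fold change of CM-695 against CM-414 was -0.55 (interval -0.96 to -0.14, adjusted p = 0.853), short of the threshold of 0.01. Without CM-695 replicate 3, the lowest array, it was -0.33, and without CM-695 replicate 1 it was -0.71 and past the threshold. SAHA and tadalafil mice had 6.50, 6.60 and 6.41 and vehicle mice 6.53, 6.18 and 6.65, inside or between the ranges of the others. Against vehicle C3ar1 had log2 fold changes of -0.32 with CM-695, 0.23 with CM-414 and 0.05 with SAHA and tadalafil, with adjusted p of 0.992, 0.729 and 0.997. In CM-695 against CM-414 no member was past the unadjusted threshold of 0.01, where 1.11% of 35326 probe sets were, and C1qb, C1qc and C3ar1 lay below CM-414 without overlap, where 6.94% of probe sets did.

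Itgam, the CD11b chain of complement receptor 3, was lowest in CM-414 mice. Its values were 7.55, 7.67 and 7.11 in CM-414 mice, 7.93, 7.95 and 7.25 in CM-695 mice, 7.40, 7.69 and 7.95 in SAHA and tadalafil mice, and 8.13, 7.65 and 8.01 in vehicle mice. CM-414 replicate 2, at 7.67, lay just above vehicle replicate 2. The log2 fold change of CM-414 against vehicle was -0.48 (interval -0.98 to 0.01), with an adjusted p of 0.542, and it was not past the threshold. Without the 3 arrays that stand apart it was -0.62 and past the threshold. The log2 fold changes were -0.22 with CM-695 (adjusted p = 0.992) and -0.25 with SAHA and tadalafil (adjusted p = 0.996). Between CM-695 and CM-414 it was 0.27 (interval -0.23 to 0.76, adjusted p = 0.907).

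C5ar1, the receptor of C5a, and Cd55 did not separate the groups. C5ar1 lay between 5.83 and 5.94 in CM-695 mice, 5.68 and 5.89 in CM-414 mice, 5.73 and 6.09 in SAHA and tadalafil mice, and 5.82 and 6.15 in vehicle mice. Cd55 lay between 6.25 and 6.59 in CM-695 mice, 6.17 and 6.47 in CM-414 mice, 6.13 and 6.73 in SAHA and tadalafil mice, and 6.05 and 6.56 in vehicle mice. The groups overlapped for both genes. Against vehicle, the log2 fold changes of C5ar1 were -0.06, -0.16 and -0.07 in CM-695, in CM-414 and in SAHA and tadalafil mice, and those of Cd55 were 0.08, 0.03 and 0.05. The adjusted p from limma was at least 0.699 for each of these, and the F test over the 4 groups gave an adjusted p of 0.894 for C5ar1 and 0.990 for Cd55.

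**Figure D2:**
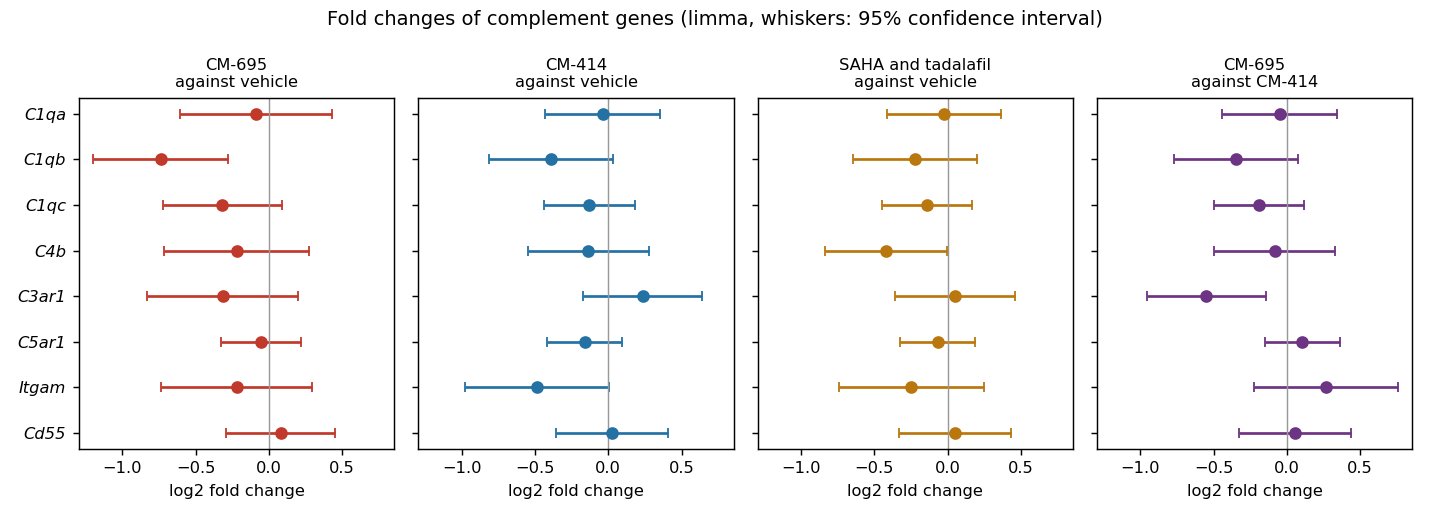
Log2 fold change (x axis) of each complement gene (y axis) in 4 comparisons, with 95% confidence intervals from limma. The interval lies wholly below 0 for C1qb with CM-695 (-1.20 to -0.28), C4b with SAHA and tadalafil (-0.83 to -0.01) and C3ar1 in CM-695 against CM-414 (-0.96 to -0.14), and reaches 0 for all others.

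Counted together, 7 of the 8 members had negative fold changes with CM-695 against vehicle (median -0.22), where 48% of all probe sets did (median 0.0071). With CM-414 and with SAHA and tadalafil 6 of 8 were negative (medians -0.13 and -0.10), where 48.8% and 52.7% of all probe sets were. No member was called at an unadjusted p under 0.01 with CM-414 (2.45% of probe sets called), with SAHA and tadalafil (1.12%), for the 3 treatments together (1.62%) or over the 4 groups (1.62%). At an unadjusted p under 0.05 the counts were 0, 1, 1 and 1 of 8, where 9.35%, 5.23%, 7.17% and 7.53% of probe sets were called. The members are not replicates of one another, since C1qa, C1qb and C1qc are neighbours and most are transcripts of microglia.

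The spread between mice of a group was above that of the median probe set for all members but C5ar1. The SD within groups on the log2 scale was 0.31 for Itgam, 0.26 for C1qb and C4b, 0.25 for C3ar1, 0.24 for C1qa, 0.23 for Cd55, 0.18 for C1qc and 0.14 for C5ar1, against a median of 0.16 over 34785 probe sets. Part of it followed whole arrays. Vehicle replicate 1 was the highest of the 12 arrays for 5 of the members and lay below its group's mean for 1 of 8. Vehicle replicate 2 lay below that mean for 7 of 8. Among treated arrays, CM-695 replicate 3 lay below the vehicle mean for 7 of 8 members, by a median of -0.40, and CM-695 replicates 1 and 2 for 4 and 5 of 8.

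After each group's mean had been subtracted, C1qb and C1qc went up and down together from mouse to mouse (12 arrays, Pearson's r = 0.81, permutation p = 0.00059, adjusted 0.00826 over 28 pairs). Spearman's rho was 0.89 (permutation p = 0.00017, adjusted 0.00476). The p-values of r and rho, in this and the next paragraphs, are likely too small. The permutations shuffled the 12 values freely, although each group's mean had been subtracted. Without the 2 arrays farthest from the median of C1qb, r was 0.61, and without the 3 arrays that stand apart it was 0.87. Here and below, r without the 2 farthest arrays kept the group means of all 12 arrays. Without the 3 arrays that stand apart, group means were taken anew, so these 2 kinds of r are not like for like. C1qa went with neither C1qb nor C1qc over all 12 arrays (r = 0.12 and 0.38, permutation p = 0.723 and 0.218). Without the 3 arrays that stand apart these values were 0.77 and 0.80 over 9 arrays. C1qa instead went with C3ar1 (r = 0.90, permutation p = 0.00015, adjusted 0.0042; rho = 0.79, p = 0.00335, adjusted 0.0469). CM-695 replicate 3 and vehicle replicate 2 were the lowest arrays for both genes. Without these 2 arrays r was 0.69 by the group means of all 12 arrays. Without all 3 arrays that stand apart, with group means taken anew, it was 0.30, so that the relation leaned on those arrays. C1qb with C1qc and C1qa with C3ar1 were the only pairs of 28 with an adjusted p under 0.05 for r.

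The members did not share a single relation to the microglial markers. These relations to marker lists were chosen after the values had been seen. Over the mean of 11 microglial markers (P2ry12, Tmem119, Cx3cr1 and others), again after subtracting group means, Itgam had r = 0.86 (permutation p = 0.00091, adjusted 0.0109 over 24 relations; rho = 0.80, p = 0.00241) and Cd55 r = 0.78 (permutation p = 0.00412, adjusted 0.0247; rho = 0.79, p = 0.00324). Without the 2 arrays farthest from the median of the marker mean both were 0.80. C1qb had r = 0.30 (permutation p = 0.343; rho = 0.38, p = 0.22), C1qc r = 0.40 (permutation p = 0.203) and C1qa r = 0.45 (permutation p = 0.142), and without the 3 arrays that stand apart C1qa had r = -0.28. C5ar1 ran the other way, with r = -0.72 (permutation p = 0.00842, adjusted 0.0404; rho = -0.66, p = 0.0211, adjusted 0.0844), and -0.55 without the 2 farthest arrays. Its signal was low, at 5.68 to 6.15, below the median over all probe sets of every array (6.34 to 6.41). C4b had r = 0.11 (permutation p = 0.733) and C3ar1 r = 0.46 (permutation p = 0.136). Without the 3 arrays that stand apart C4b had r = -0.81 and C3ar1 r = 0.089. The marker mean itself lay between 7.60 and 7.76 in CM-695 mice, 7.43 and 7.63 in CM-414 mice, 7.58 and 7.80 in SAHA and tadalafil mice, and 7.75 and 7.91 in vehicle mice, so that only the CM-414 arrays were all below the vehicle arrays. Against vehicle 9 of the 11 markers were negative with CM-695, 11 with CM-414 and 10 with SAHA and tadalafil, with medians of -0.14, -0.24 and -0.12. Of these markers Fcrls fell by 0.78 with CM-695 and by 1.01 with CM-414 (adjusted p = 0.871 and 0.294), and no other was called in these 3 comparisons.

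**Figure D3:**
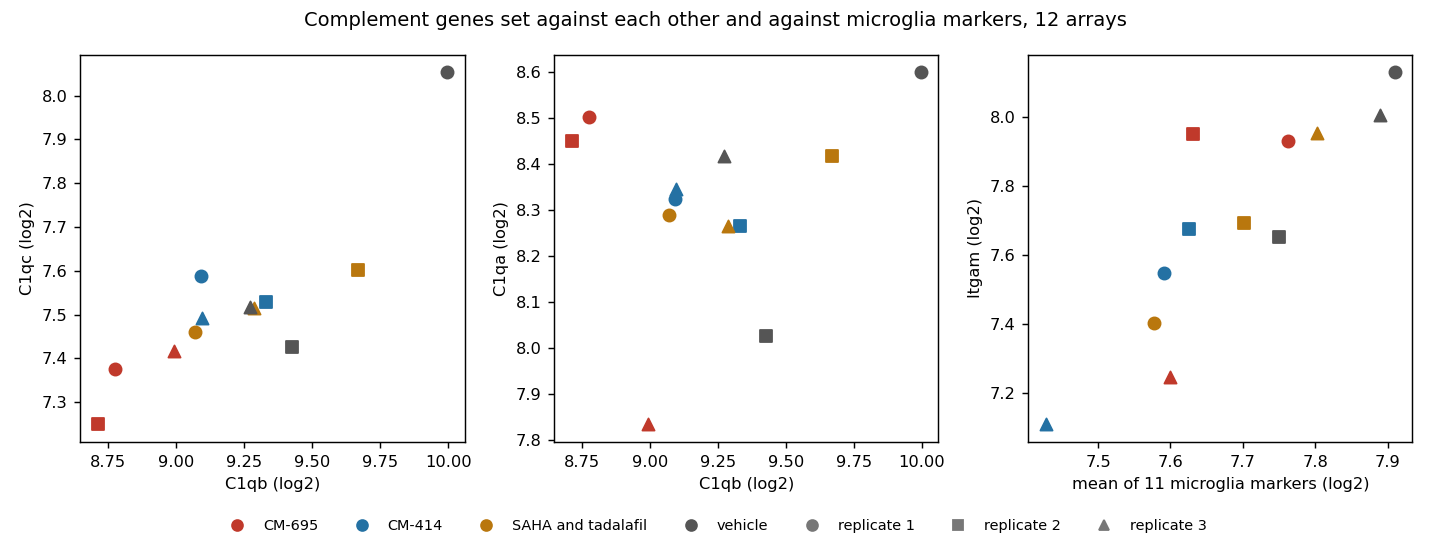
Log2 values on the 12 arrays: C1qc (y axis) against C1qb (x axis), C1qa against C1qb, and Itgam against the mean of 11 microglial markers, with groups by colour and replicates by symbol. C1qb and C1qc follow each other and CM-695 arrays lie at their lower end, while in the panel of C1qa the CM-695 replicates 1 and 2 combine low C1qb (8.77 and 8.71) with high C1qa (8.50 and 8.45).

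Markers of plaque-associated microglia and of adjoining tissue are given here because they moved with some of the members. The adjusted p-values leave out the lists not chosen, so they are no test of these relations. The mean of 15 plaque-associated genes had r = 0.83 with C1qa (permutation p = 0.00073, adjusted 0.0109; rho = 0.64, p = 0.0298, adjusted 0.102), 0.65 without CM-695 replicate 3 and vehicle replicate 1, and 0.50 without the 3 arrays that stand apart. With Itgam it had r = 0.75 (permutation p = 0.00397, adjusted 0.0247; rho = 0.76, p = 0.00528, adjusted 0.0317), 0.64 without the same 2 arrays and 0.37 without the 3 that stand apart. With C1qb and C1qc it had r = 0.27 and 0.51 (permutation p = 0.397 and 0.0867), and 0.70 and 0.89 without the 3 arrays that stand apart. Of these 15 genes Gpnmb alone was called with CM-695 against vehicle, with a log2 fold change of -0.64 (adjusted p = 0.871), and 12 were negative. The mean of the 14 thalamus and habenula markers lay between 7.23 and 7.33 in CM-695 mice, 7.19 and 7.25 in CM-414 mice, 7.20 and 7.87 in SAHA and tadalafil mice, and 7.17 and 7.88 in vehicle mice. Its highest arrays were vehicle replicate 1 and SAHA and tadalafil replicate 2, which were also the highest for C1qb and C1qc. Within groups r was 0.66 for C1qb (permutation p = 0.018, adjusted 0.0617; rho = 0.43, p = 0.162) and 0.70 for C1qc (permutation p = 0.0141, adjusted 0.0564; rho = 0.59, p = 0.0458), and for C1qa it was 0.63 (permutation p = 0.0283, adjusted 0.0773; rho = 0.84, p = 0.00116, adjusted 0.0259). Without vehicle replicate 2 and SAHA and tadalafil replicate 2, the farthest from the median, r was 0.57 for C1qb, 0.68 for C1qc and 0.56 for C1qa. Without the 3 arrays that stand apart it was 0.73, 0.55 and 0.86. C3ar1 had r = 0.49 with this mean (permutation p = 0.102, adjusted 0.204), and 0.36 without the 3 arrays that stand apart. Its rho was 0.73 (permutation p = 0.00973, adjusted 0.0467). The part of thalamus and habenula in the C1q values was not tested. Against vehicle 11 of these 14 markers were negative with CM-695 and 10 with CM-414, with a median of -0.25 in both.

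The genes most like the C1q genes were found by ranking 19941 genes by Pearson's r over the 12 arrays with the mean of C1qa, C1qb and C1qc. The first 10 were Acaa1a, Igfbp7, Nexn, Synpo2, Akap2, Amotl1, Ccdc172, Gm6713, Slitrk6 and Rab37, with r from 0.90 to 0.86. Without vehicle replicate 1, the highest array for that mean, r ran from 0.62 for Ccdc172 to 0.90 for Acaa1a. Nexn and Synpo2 encode proteins that bind actin, Igfbp7 a secreted binding protein of growth factors, Acaa1a a thiolase of the peroxisome, Slitrk6 a transmembrane protein of neurons and Rab37 a small GTPase. None of them is in the marker lists, and their relation to the thalamus and habenula markers was not tested. Their log2 fold changes with CM-695 against vehicle ran from -0.19 for Akap2 to -0.90 for Slitrk6. Since they were picked as the highest of many over the same arrays, these values carry no test.

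The rest of the complement system gave no call. Of 50 other complement genes 45 were tested against vehicle, and 0 passed an unadjusted p under 0.01 in either direction with CM-695, CM-414 or SAHA and tadalafil. With CM-695 24 had positive and 21 negative fold changes, with a median of 0.0086. With CM-414 19 were positive and 26 negative (median -0.033), and with SAHA and tadalafil 22 were positive and 23 negative (median -0.0030). At an unadjusted p under 0.05 there were 0, 2 and 1 in these comparisons, named after their values had been seen: Cpn1 (log2 fold change -0.27) and C1qbp (0.18) with CM-414 and Cd46 (0.32) with SAHA and tadalafil. The remaining classical pathway genes had medians of -0.14, -0.14 and -0.24, each over 5 genes. The genes past the filter were not all the same with CM-695 as in the other comparisons, so these medians are not like for like. C4a, which is among them, had log2 fold changes of -0.54, -0.30 and -0.64 (adjusted p from limma = 0.992, 0.795 and 0.953). The 18 regulators had medians of 0.015, -0.029 and 0.045. The 7 genes of the terminal pathway, which builds the membrane pore, had medians of 0.020, -0.13 and -0.0030.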

How the data were processed

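Hippocampal RNA of 12 mice, in 4 groups of 3 by the labels, was hybridized to Affymetrix arrays (Mouse Gene 2.0 ST). The values deposited by the authors are log2 RMA intensities of 41345 probe sets, with background correction, normalization between arrays and summary per probe set; no version of RMA was found in the sources. Genes came from the platform annotation: 23521 probe sets have 1 symbol, 1820 several and 16004 none listed. The members and gene lists were chosen with earlier results of these data known.

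Probe sets with a log2 value over 4 on all arrays of the groups compared were tested with limma 3.58.1 in R 4.3.3, two-sided. As in the study's methods a call was an unadjusted p under 0.01, with Benjamini-Hochberg adjusted p over all probe sets beside it. CM-695 against vehicle was fitted on its 6 arrays, and the other comparisons on all 12. Intervals are 95%. The rule for named genes took all members, other complement genes where called (none was) and the 10 genes closest to the mean of the C1q genes. Outside it, Cpn1, C1qbp and Cd46 were named after their values had been seen, and C4a as the near copy of C4b. Correlations were computed after subtracting group means, with permutation p from 100000 resamples, over 28 pairs because C3 had no probe set. The fit was tested on simulated data. Alternatives covered the filter, which arrays were fitted, a replicate block, an intensity trend, centring of arrays, array weights, the arrays that stand apart and each replicate left out. The number of arrays limits the precision, and p-values measure the spread between these mice. Figures were drawn with matplotlib 3.10.9.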

Additional observations from a re-analysis of the deposited data

How the results depend on the processing

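The number of members called at an unadjusted limma p under 0.01 moved by at most 2 of 8. For CM-695 against vehicle it was 1 (C1qb), 0 with the replicate block, 0 without the 3 arrays that stand apart and 0 to 1 with a replicate left out. Array weights gave 2 with CM-414 (C1qb and Itgam), 1 with SAHA and tadalafil (C4b), 2 for the 3 treatments together (C1qb and C1qc) and 1 over the 4 groups (C1qb), where the count was 0 as reported. Leaving out the arrays that stand apart gave 1 with CM-414 (Itgam). With a replicate left out the range was 0 to 1 in these comparisons and in CM-695 against CM-414, except CM-414 against vehicle, where it was 0. The filter, the intensity trend, centring and the arrays in the fit moved none of these counts. The share of all probe sets called for CM-695 against vehicle was 1.12%, 3.12% with array weights and 3.16% without the arrays that stand apart (33 probe sets at an adjusted p under 0.05). For the other comparisons the share under each setting is not given here, so their counts are not read as a result about the members. Replicate numbers did not pair the mice: of 18 same-numbered pairs 4 had r over 0.1 (-0.35 to 0.16), and 7 of 36 best matches were to the own number. The replicate block changed no other call. The mean over all probe sets of a gene was not run because each member has 1.

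Signs changed only for members that were not called. With array weights the log2 fold changes against vehicle were 0.027 for C5ar1 and -0.0027 for Cd55 with CM-695, -0.045 for Cd55 with CM-414 and -0.026 for C3ar1 with SAHA and tadalafil, and C1qa in CM-695 against CM-414 had 0.066. Without the arrays that stand apart they were, in the same order, 0.071, -0.063, -0.12, -0.082 and 0.16, with -0.056 for Cd55 with SAHA and tadalafil and -0.079 for Cd55 with the 3 treatments together. After centring, C3ar1 had 0.0031 with the 3 treatments together. With a replicate left out, log2 fold changes with CM-695 against vehicle ran from -0.25 to 0.13 for C1qa, -0.12 to 0.044 for C5ar1, -0.064 to 0.19 for Cd55 and -0.36 to 0.011 for Itgam. With CM-414 they ran from -0.20 to 0.089 for C1qa, -0.25 to 0.066 for C1qc, -0.35 to 0.031 for C4b and -0.12 to 0.14 for Cd55. With SAHA and tadalafil they ran from -0.19 to 0.10 for C1qa, -0.26 to 0.055 for C1qc, -0.086 to 0.15 for C3ar1, -0.17 to 0.033 for C5ar1 and -0.12 to 0.18 for Cd55. In CM-695 against CM-414 they ran from -0.17 to 0.16 for C1qa, -0.21 to 0.038 for C4b and -0.042 to 0.14 for Cd55. For the 3 treatments together they ran from -0.21 to 0.076 for C1qa, -0.15 to 0.087 for C3ar1, -0.16 to 0.0050 for C5ar1 and -0.092 to 0.16 for Cd55. The causes were not tested.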

Other observations

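Other cell types of the tissue gave few calls at an unadjusted p under 0.01. Of 9 oligodendrocyte markers, Olig2, a transcription factor of that lineage, rose with CM-695 against vehicle (log2 fold change 0.59, adjusted p = 0.871), and Olig1 fell by 0.58 with CM-414 against vehicle (adjusted p = 0.205). Between CM-695 and CM-414 both were higher with CM-695, by 0.70 for Olig2 and 0.44 for Olig1, as were 8 of the 9 markers (adjusted p = 0.653 and 0.702). Slco1a4, an organic anion transporter of brain endothelium, was higher than in vehicle mice with CM-414 (0.47, adjusted p = 0.386) and with SAHA and tadalafil (0.43, adjusted p = 0.861), and was the only one of 10 endothelial markers called in either.

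Of the remaining lists, Sox9 was the only one of 10 astrocyte markers called with CM-414 against vehicle (log2 fold change -0.36, adjusted p = 0.399). None of 10 neuronal, 8 meningeal fibroblast, 7 border macrophage, 7 choroid plexus and 8 neutrophil and monocyte markers was called against vehicle in any of the 3 treatments. Camp, a neutrophil granule gene, was called in CM-695 against CM-414 (log2 fold change 0.38, adjusted p = 0.733). The choroid plexus mean ran from 7.59 to 8.91 in CM-695 mice, 7.27 to 8.63 in CM-414 mice, 7.51 to 8.94 in SAHA and tadalafil mice, and 7.66 to 8.83 in vehicle mice.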
